A study of Mus musculus with 12 samples.

Results

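The genes described here encode Wnt ligands, their frizzled receptors, the secreted frizzled-related proteins (Sfrp) and 6 proteins that work beside them. They were taken by name from the platform annotation: every measured gene with a Wnt, Fzd or Sfrp symbol followed by its number, and Lrp5, Lrp6, Porcn, Ror1, Ror2 and Ryk. This gave 38 of the 12393 genes measured: 19 Wnt ligands, 9 frizzled receptors (Fzd1 to Fzd9), 4 Sfrp genes (Sfrp1, Sfrp2, Sfrp4 and Sfrp5) and the 6 co-receptor and processing genes. The rule uses names only, no measured values. RNA came from fetal kidneys of C57BL/6 mice grown in culture: 6 samples carry the label beta-catenin activated and a description that mentions tumors, and 6 are labelled wild type and described as normal. They are called activated and wildtype. The dams of both groups were given tamoxifen at 10.5 days post coitum (2 mg per 40 g of body weight), the kidneys were taken at 10.5 days, and both groups were then kept in culture for 3 to 4 days on membranes, with transferrin, insulin and selenium in the medium. The labels used here name neither the beta-catenin allele nor a Cre driver, and they do not say which cells of the kidney were activated, or whether a sample was a single kidney, a pair or a pool. The p-values below therefore measure the spread between these samples, which may be technical.

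Wnt proteins are secreted signals that need a lipid added by Porcn, a membrane-bound acyltransferase, before they can leave the cell and bind a receptor. A Wnt that engages a frizzled receptor together with Lrp5 or Lrp6 stabilises beta-catenin, which enters the nucleus and acts with Tcf and Lef factors; a beta-catenin that is itself stabilised works downstream of these proteins. Sfrp proteins carry a frizzled-like domain and bind Wnts outside the cell, and Ror1, Ror2 and Ryk are receptors for Wnt signals that need not pass through beta-catenin. In the developing mouse kidney, Wnt9b and Wnt11 are known from the ureteric bud, the branching tube that forms the collecting ducts, and Wnt4 is known from the mesenchymal aggregates that turn into nephrons.

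Each sample was hybridised to 1 array, and every value is given as log2(intensity + 16) after quantile normalisation, called the signal. The titles carry numbers that form a higher and a lower run, each with 3 activated and 3 wildtype arrays; replicates 4 to 6 of a genotype belong to the higher run and replicates 1 to 3 to the lower. What the runs stand for is not in the labels. Arrays separated by run: principal component 1 (24.7% of the variance) placed the higher-run arrays between 17.0 and 22.9 and the lower-run arrays between -27.1 and -15.0, so every comparison is also given within runs. The array of activated replicate 2 stood furthest apart in Gapdh, whose 5' over 3' signal is a measure of RNA and labelling quality. Its log2 ratio was 0.07, against -2.61 to -1.06 on the others. Activated replicate 6 (-1.06) and wildtype replicate 2 (-1.13) also lay above the remaining arrays, which were between -2.61 and -2.04. Values without activated replicate 2 are given where they matter. The samples were of both sexes and unevenly so: activated replicate 6 and wildtype replicates 2 and 5 had high Xist (11.5 to 11.9) and low Y-linked signal (4.24 to 4.48), and activated replicate 4 had both high (Xist 10.9, Y-linked mean 7.54). On the other 8 arrays Xist was at most 6.08 and the Y-linked mean at least 7.38. Markers of the labelled organ were present: all 8 stroma markers stayed above the control signal on every array, as did 5 of 8 markers of the cap mesenchyme, the nephron progenitors. For the ureteric bud, Krt8, Krt18, Cdh1, Calb1 and Gata3 were above it on every array, while Ret and Hoxb7 were above it on 0 arrays.

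Most of the receptors were detected and most of the ligands were not, or not on every array. The files hold no detection calls, so a gene was counted as detected on an array where its signal was above 5.45. This is the highest value of 27 probe sets for bacterial control transcripts over all arrays, and it was reached in the lower run. In the higher run alone the highest control value was 5.27. With 5.45 as the limit on all arrays, 18 of the 38 genes were detected on all 12 arrays, 9 on some and 11 on 0. Among the 19 ligands, Wnt4, Wnt5a, Wnt5b, Wnt7b and Wnt11 were detected on all 12 arrays, 6 on some and 8 on 0. Among the 9 frizzled receptors, 7 were detected on all 12 arrays, Fzd5 on 1 array and Fzd9 on 0. Sfrp1, Sfrp2 and Sfrp4 were detected on all 12 arrays and Sfrp5 on 0. Lrp6, Ror2 and Ryk were detected on all 12 arrays, Porcn on 9, Ror1 on 2 and Lrp5 on 0. The undetected ligands were Wnt1, Wnt3, Wnt3a, Wnt8a, Wnt8b, Wnt9a, Wnt9b and Wnt10b; a signal under the controls gives only an upper bound, and no fold change is given for such a gene. Probe sets differ in how strongly they bind, so the signals of different genes are not ranked against each other.

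**Figure D1:**
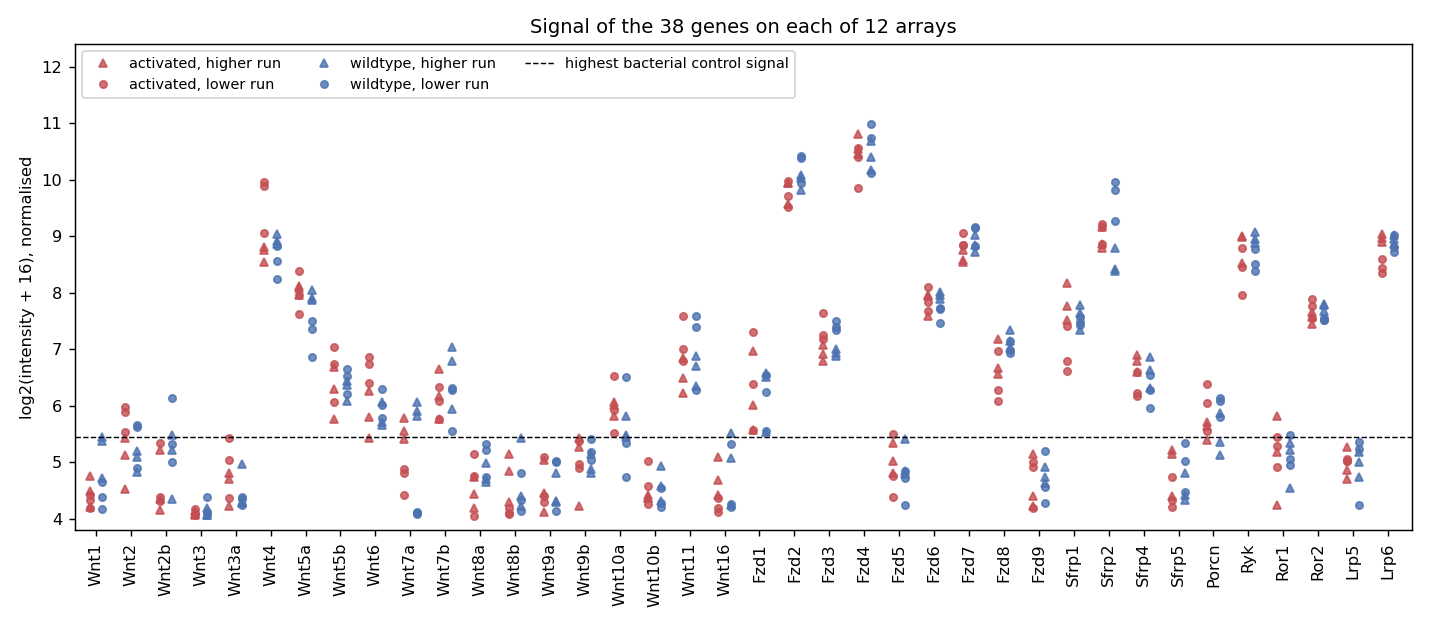
Signal, as log2(intensity + 16) after quantile normalisation, of each of the 38 genes (columns, by class) on the 12 arrays, with genotype as colour and run as symbol; the dashed line is the highest bacterial control signal, 5.45. Of the 19 Wnt ligands 8 lie wholly below the line, against 1 of 9 frizzled receptors.

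Over all 12 arrays, none of the 38 genes passed the test between activated and wildtype kidneys. With limma, 0 of 38 had an adjusted p under 0.05, where 0.0242% of all 12393 genes did, and 4 had an unadjusted p under 0.05, where 6.15% of all genes did. For 0 of 38 the 6 activated arrays lay wholly above or below the 6 wildtype arrays, as they did for 0.500% of all genes. The 4 genes were Fzd2, Fzd8, Wnt5a and Wnt2b. The same 4 had an unadjusted p under 0.05 with the run as a term in the model (8.79% of all genes did), and again 0 of 38 passed after adjustment (0.105% of all genes). The median difference, activated minus wildtype, was -0.04 over the 38 genes and -0.01 over all genes, and 17 of the 38 differences were positive. Both the median and this count include the 11 genes detected on 0 arrays, which have no measured direction.

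The runs differed, and the genes with the smallest p-values in each run are described below by their roles. In the higher run, 0 of 38 genes passed (0.00807% of all genes) and 2 had an unadjusted p under 0.05 (5.26%, against 6.36% of all genes). In the lower run, 0 of 38 passed (0.597% of all genes) and 7 had an unadjusted p under 0.05 (18.4%, against 7.07% of all genes). Activated and wildtype arrays did not overlap for 4 of the 38 genes in the higher run (10.5%, against 11.3% of all genes) and for 7 in the lower run (18.4%, against 12.5%). The test of the difference between runs, that is of activated minus wildtype in the higher run minus the same in the lower run, passed for 0 of 38 genes (0.331% of all genes) and gave 7 an unadjusted p under 0.05 (18.4%, against 6.11%). Some of the counted genes were under the highest control signal on every array compared and have no measured direction. Wnt1 is among the 2 genes of the higher run. Wnt7a is among the 7 of the lower run in both counts. Sfrp5 is among the 7 for the change between runs, as is Wnt7a with its lower-run signals under the controls. The shares in the higher run lie near those of all genes and are no result about these genes. The larger shares in the lower run were not tested against other genes.

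**Figure D2:**
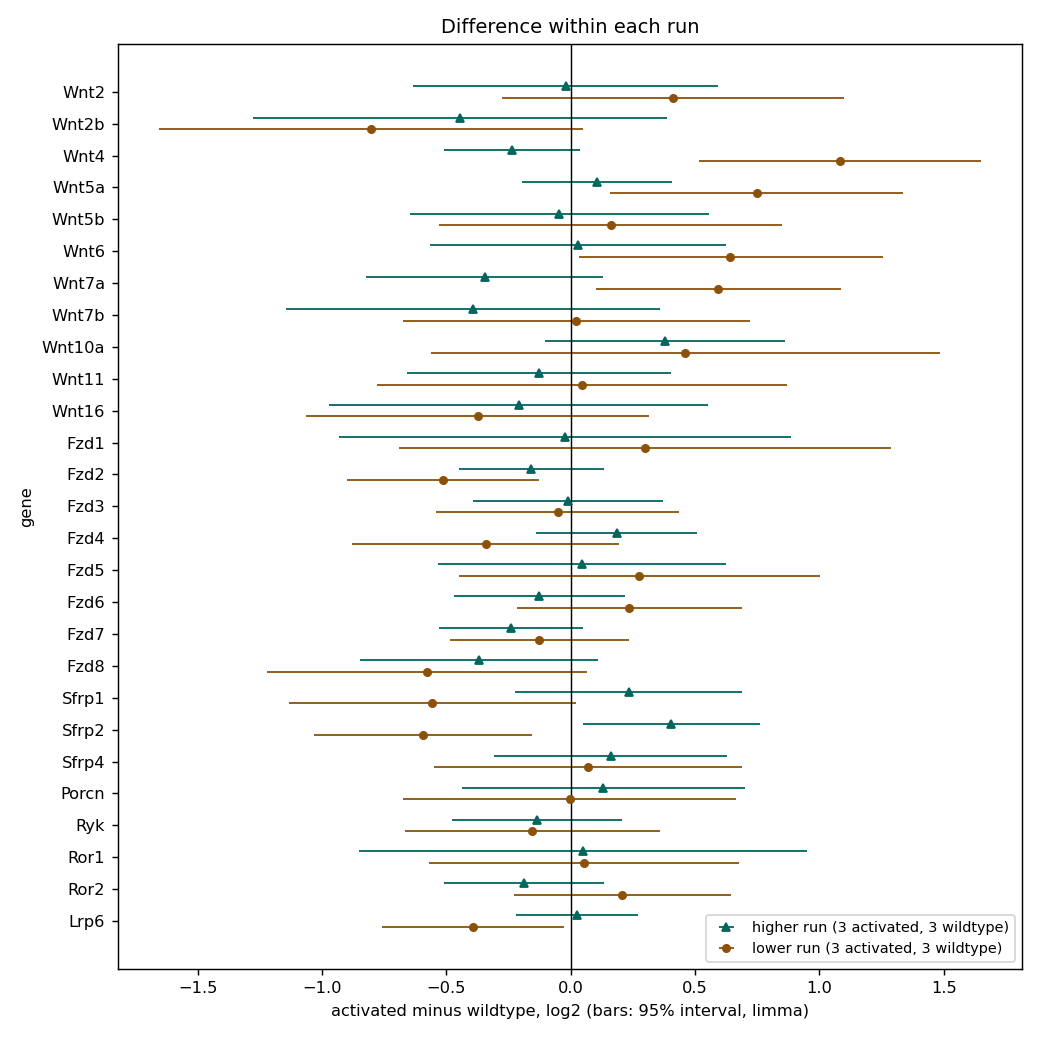
Activated minus wildtype difference in log2 signal, with its 95% confidence interval, for the 27 genes detected on at least 1 array, in the higher run (triangles) and the lower run (circles), 3 against 3 arrays each. Wnt4 reads -0.24 in the higher run and 1.08 in the lower run, and Sfrp2 reads 0.40 and -0.59. Wnt7a signals in the lower run were all under the bacterial controls.

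Wnt4, the signal that drives mesenchymal aggregates to become epithelium, differed most between the runs. In the higher run its signal was 8.75, 8.55 and 8.80 in activated kidneys, against 8.86, 8.92 and 9.03 in wildtype kidneys. Wnt4 in the lower run was 9.89, 9.96 and 9.05 in activated kidneys, against 8.57, 8.25 and 8.83 in wildtype kidneys. All 3 activated arrays were thus below the wildtype arrays in the higher run and above them in the lower run. The difference was -0.24 (SE 0.12, adjusted p = 0.836 with limma) in the higher run and 1.08 (SE 0.25, 95% interval 0.52 to 1.65, adjusted p = 0.133), or 2.12-fold, in the lower run. The change between runs was -1.32 (SE 0.30, adjusted p = 0.108). None of these passed. Activated replicate 2 was the highest of the lower-run activated arrays and the array that stood furthest apart in Gapdh. Without it the lower-run difference was 0.92 (adjusted p = 0.265 with limma) and the change between runs -1.16 (adjusted p = 0.157). Without activated replicate 3, the lowest of the lower-run activated arrays, the lower-run difference was 1.38 and passed (adjusted p = 0.0365), as did the change between runs at -1.61 (adjusted p = 0.0123). Over all alternative settings tried the adjusted p ran between 0.0172 and 0.504 for the lower-run difference.

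Wnt4 is known from early nephrons. The summed intensity of the 6 measured markers of that stage ranged between 1233 and 1546 in activated and between 1582 and 1750 in wildtype kidneys of the higher run, and between 1878 and 2166 in activated and between 1621 and 2341 in wildtype kidneys of the lower run. The genotypes did not overlap in the higher run and did in the lower run. Markers of the cap mesenchyme, from which the aggregates form, summed to between 1664 and 2349 in activated and between 2224 and 2652 in wildtype kidneys of the higher run. In the lower run the same 8 markers summed to between 752 and 905 in activated and between 2546 and 2973 in wildtype kidneys, and 3 of them passed the test as lower in activated kidneys. In RNA from a whole organ, fewer cells of a type and less RNA per cell cannot be told apart. The part of these cells in the Wnt4 values was not tested.

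Wnt5a, a ligand best known for beta-catenin independent signals in mesenchyme, had the smallest p over all arrays among the ligands detected on every array. Its signal in the higher run was 8.08, 7.95 and 8.12 in activated kidneys, against 7.91, 7.87 and 8.06 in wildtype kidneys. Wnt5a in the lower run was 7.96, 7.62 and 8.38 in activated kidneys, against 7.50, 6.87 and 7.36 in wildtype kidneys. The groups overlapped in the higher run, and all 3 activated arrays were above the wildtype arrays in the lower run. The difference over all arrays was 0.43 (SE 0.19, unadjusted p = 0.0445, adjusted p = 0.805 with limma). It was 0.11 in the higher run and 0.75 (SE 0.26, adjusted p = 0.474) in the lower run. The second Wnt5a probe set gave 0.71 in the lower run. Among wildtype kidneys the mean was 7.95 ± 0.10 in the higher run and 7.24 ± 0.33 in the lower run (SD, n = 3 each; adjusted p = 0.0724 for that run difference).

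Wnt6, a ligand known from the ureteric bud, had a signal of 5.44, 5.81 and 6.27 in activated kidneys of the higher run, against 5.66, 6.06 and 5.71 in wildtype kidneys. Wnt6 in the lower run was 6.40, 6.87 and 6.74 in activated kidneys, against 5.78, 6.29 and 6.01 in wildtype kidneys. The groups overlapped in the higher run and did not in the lower run, where the difference was 0.64 (SE 0.27, adjusted p = 0.642 with limma). Wnt10a lies next to Wnt6 on chromosome 1 in the RefSeq assembly GRCm38.p6. Wnt10a was detected on 9 arrays, with a signal of 6.01, 5.83 and 6.06 in activated kidneys of the higher run, against 5.83, 5.49 and 5.44 in wildtype kidneys. There the activated arrays lay above the wildtype arrays, the nearest pair alike to 2 decimals, and the difference was 0.38 (SE 0.21, adjusted p = 0.854). Wnt10a in the lower run read 5.51, 6.53 and 5.92 in activated kidneys, against 5.34, 4.73 and 6.51 in wildtype kidneys, with overlap. The 3 other pairs of neighbouring members there, Wnt3a with Wnt9a, Wnt9b with Wnt3, and Wnt10b with Wnt1, were detected on 0 arrays.

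Wnt7a, known for its part in limb and reproductive tract patterning, was above the controls in the higher run only. Its signal was 5.79, 5.41 and 5.56 in activated kidneys of the higher run, against 5.82, 6.07 and 5.90 in wildtype kidneys, so 5 of these 6 arrays were above the controls. Wnt7a in the lower run was 4.41, 4.81 and 4.88 in activated kidneys, against 4.12, 4.11 and 4.09 in wildtype kidneys, all under the controls. Between genotypes the difference in the higher run was -0.35 (SE 0.21, adjusted p = 0.861 with limma), with all 3 activated arrays below the wildtype arrays, and no fold change is given for the lower run.

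The ligands known from the ureteric bud gave no difference that passed. Wnt11, a bud tip ligand, had a signal of 6.22, 6.85 and 6.48 in activated kidneys of the higher run, against 6.88, 6.71 and 6.36 in wildtype kidneys. Wnt11 in the lower run read 7.60, 6.79 and 7.00 in activated kidneys, against 6.27, 7.59 and 7.39 in wildtype kidneys. The groups overlapped in both runs, and the difference over all arrays was -0.04 with a 95% interval of -0.60 to 0.52. Wnt7b, a ligand of the bud stalk needed for the renal medulla, read 6.18, 5.77 and 6.65 in activated kidneys of the higher run, against 6.79, 7.04 and 5.95 in wildtype kidneys. Wnt7b in the lower run read 6.09, 6.33 and 5.77 in activated kidneys, against 6.28, 6.31 and 5.54 in wildtype kidneys, again with overlap. Its difference over all arrays was -0.19 with a 95% interval of -0.72 to 0.34. Wnt9b, the bud ligand that induces nephrons, was under the highest control signal, 5.45, on all 12 arrays, with its highest signal at 5.42. That signal was on an activated array of the higher run, where the highest control was 5.271. The median of Wnt9b in activated kidneys of that run was 5.276, so its detection there depends on the limit. The 7 measured ureteric bud markers other than Wnt11 summed to an intensity between 4072 and 5648 in activated and between 5498 and 6455 in wildtype kidneys of the higher run. In the lower run they summed to between 2903 and 4414 in activated and between 4786 and 5849 in wildtype kidneys. Their part in the values of Wnt6, Wnt7b and Wnt11 was not tested.

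Wnt2b, a stromal ligand in the kidney, was detected on 2 arrays, both wildtype. Its signal ranged between 4.15 and 5.35 in activated and between 4.36 and 6.13 in wildtype kidneys (n = 6 each), and the groups overlapped. Both group means were under the controls, so no fold change is given, although the unadjusted p was 0.0439 (adjusted p = 0.805 with limma). Wnt5b, detected on all arrays, differed by 0.06 (95% interval -0.39 to 0.51) over all arrays. Wnt1, Wnt3a and Wnt8a were among the 8 smallest unadjusted p-values of a comparison but lay under the highest control signal, 5.45, on every array. For Wnt1 this depends on the limit: in wildtype kidneys of the higher run its median was 5.37 and its highest signal 5.448. Both are above 5.27, the highest control signal of that run.

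**Figure D3:**
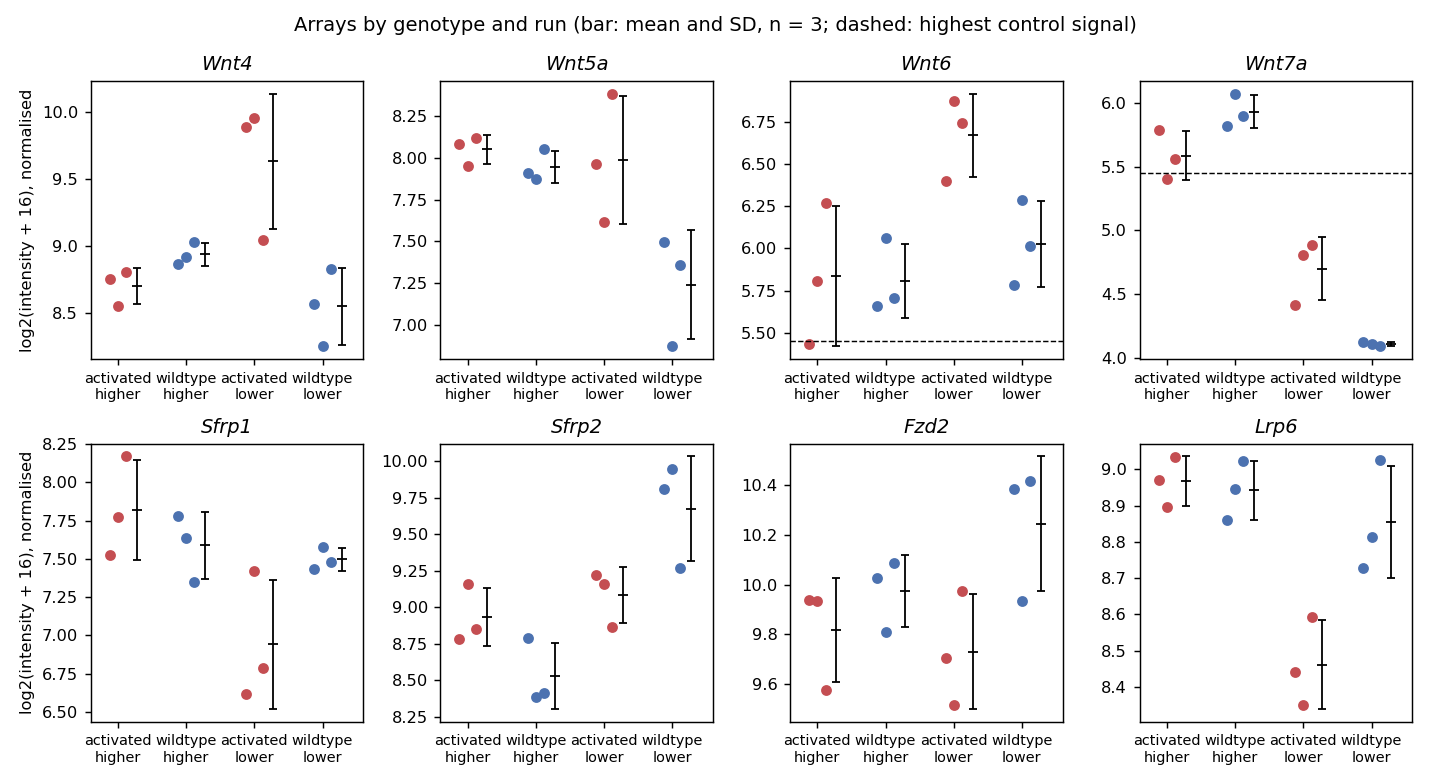
Signal of 8 genes on each array by genotype and run, with the mean and SD of 3 arrays beside the points; the dashed line, where in range, is the highest bacterial control signal. Wnt4 activated arrays lie below the wildtype arrays in the higher run and above them in the lower run, and Wnt7a lies under the controls in the lower run.

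Among the frizzled receptors, Fzd2 and Fzd8 had the smallest p-values over all arrays, and both were lower in activated kidneys without passing. Fzd2, a receptor of mesenchyme, read 9.94, 9.94 and 9.57 in activated kidneys of the higher run, against 10.02, 9.81 and 10.09 in wildtype kidneys. Fzd2 in the lower run read 9.70, 9.51 and 9.97 in activated kidneys, against 10.39, 9.93 and 10.42 in wildtype kidneys. The groups overlapped in both runs. The mean over all arrays was 9.77 ± 0.20 in activated and 10.11 ± 0.25 in wildtype kidneys (SD, n = 6 each), a difference of -0.34 (SE 0.12, unadjusted p = 0.0158, adjusted p = 0.663 with limma). Its 3 probe sets gave -0.51, -0.38 and -0.34, the last being the brightest and the value used. The unadjusted p was 0.157 for the first and 0.149 for the second with limma, so only the probe set used was under 0.05.

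Fzd8, a receptor known from the ureteric bud and its tips, read 6.57, 6.66 and 7.18 in activated kidneys of the higher run, against 7.35, 7.15 and 7.02 in wildtype kidneys. Fzd8 in the lower run read 6.98, 6.08 and 6.28 in activated kidneys, against 7.14, 6.94 and 6.98 in wildtype kidneys. In each run 2 of the 3 activated arrays lay below all wildtype arrays. The mean was 6.62 ± 0.41 in activated and 7.10 ± 0.15 in wildtype kidneys, a difference of -0.47 (SE 0.19, unadjusted p = 0.0227, adjusted p = 0.723). Without activated replicate 2, the lowest value, the difference was -0.36. The summed ureteric bud markers given above were wholly lower in activated kidneys of the lower run, and the genotypes overlapped in the higher run. The part of these markers in the Fzd8 values was not tested.

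Fzd4, a receptor known from the ureteric bud and from blood vessels, has the brightest probe set of the frizzled receptors. It read 10.55, 10.46 and 10.80 in activated kidneys of the higher run, against 10.17, 10.40 and 10.69 in wildtype kidneys. Fzd4 in the lower run read 10.41, 9.85 and 10.56 in activated kidneys, against 10.99, 10.11 and 10.74 in wildtype kidneys. The groups overlapped in both runs, and the difference over all arrays was -0.08 with a 95% interval of -0.44 to 0.28. Fzd7, a receptor of epithelium and mesenchyme, read 8.75, 8.58 and 8.54 in activated kidneys of the higher run, against 9.02, 8.71 and 8.85 in wildtype kidneys. The difference there was -0.24 (SE 0.13, adjusted p = 0.851 with limma). Its second probe set, with a mean signal of 4.57, was under the controls and gives no direction. Fzd1, Fzd3 and Fzd6 differed by 0.14, -0.03 and 0.05 over all arrays, each within an interval that included 0. Over the 9 frizzled receptors, detected or not, 2 differences were positive and 7 negative in the higher run, and 4 were positive and 5 negative in the lower run. Among all 12393 genes, 6164 differences were positive in the higher run and 5653 in the lower run.

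No Sfrp gene passed between genotypes, and Sfrp2 read in opposite directions in the runs. Sfrp2, known from nephron-forming aggregates, where it follows Wnt4, had a signal of 8.79, 9.16 and 8.85 in activated kidneys of the higher run, against 8.79, 8.38 and 8.41 in wildtype kidneys. Sfrp2 in the lower run read 9.22, 9.16 and 8.86 in activated kidneys, against 9.81, 9.95 and 9.27 in wildtype kidneys. Its activated arrays lay wholly below the wildtype arrays in the lower run, and the lowest activated and highest wildtype arrays met in the higher run. The difference was 0.40 (SE 0.16, adjusted p = 0.774 with limma) in the higher run and -0.59 (SE 0.20, adjusted p = 0.408) in the lower run, and the change between runs was 1.00 (SE 0.26, unadjusted p = 0.00205, adjusted p = 0.187). Over all arrays the runs offset each other, with 9.01 ± 0.19 in activated and 9.10 ± 0.68 in wildtype kidneys (SD, n = 6 each).

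Sfrp1, known from renal stroma and mesenchyme, read 7.52, 7.77 and 8.17 in activated kidneys of the higher run, against 7.78, 7.64 and 7.35 in wildtype kidneys. Sfrp1 in the lower run read 6.62, 7.42 and 6.79 in activated kidneys, against 7.43, 7.58 and 7.48 in wildtype kidneys. The groups overlapped in the higher run, and the activated arrays were below the wildtype arrays in the lower run, activated replicate 2 only just. The difference was 0.23 in the higher run and -0.56 (SE 0.26, adjusted p = 0.720 with limma) in the lower run. Without activated replicate 2 the lower-run difference was -0.79 (adjusted p = 0.201). All 4 Sfrp1 probe sets gave a negative difference in the lower run, between -0.56 and -0.23, while in the higher run they gave -0.58, 0.00, -0.20 and 0.23. The probe set used is the last, so the higher-run direction of Sfrp1, and whether it turns between the runs, depends on the probe set. Sfrp4, a relative found in stroma of several organs, differed by 0.11 (95% interval -0.29 to 0.51) over all arrays. Counting Sfrp5, which was under the controls throughout, all 4 Sfrp differences were positive in the higher run and 1 of 4 was positive in the lower run. The medians were 0.32 and -0.54. Of all 12393 genes, 6164 were positive in the higher run and 5653 in the lower run. The Sfrp count and medians include Sfrp5, which has no measured direction, and the Sfrp1 value that depends on the probe set.

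The 8 stroma markers summed to an intensity between 15160 and 16510 in activated and between 14150 and 14910 in wildtype kidneys of the higher run. Taken singly, 4 were higher and 4 lower in activated kidneys there, with a median difference of -0.04, and 0 passed. In the lower run the 8 markers summed to between 11770 and 13330 in activated and between 14560 and 15670 in wildtype kidneys. There 6 of the 8 were lower in activated kidneys, and 3 of 8 passed the test as lower in activated kidneys. Their part in the values of Sfrp1, Sfrp2, Fzd2 and Wnt5a was not tested.

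Of the co-receptor and processing genes, Lrp6, which with a frizzled receptor starts the beta-catenin signal, had the smallest p within a run. It read 8.97, 8.90 and 9.03 in activated kidneys of the higher run, against 8.86, 8.95 and 9.02 in wildtype kidneys. Lrp6 in the lower run read 8.44, 8.35 and 8.59 in activated kidneys, against 8.73, 8.81 and 9.03 in wildtype kidneys. The lower-run activated arrays were the 3 lowest of all 12. The difference was 0.02 in the higher run and -0.39 (SE 0.16, adjusted p = 0.617 with limma) in the lower run, where its second probe set gave -0.37. Ror2, a Wnt5a receptor, read 7.45, 7.67 and 7.57 in activated kidneys of the higher run, against 7.68, 7.79 and 7.79 in wildtype kidneys. Ror2 in the lower run read 7.76, 7.56 and 7.89 in activated kidneys, against 7.51, 7.52 and 7.56 in wildtype kidneys. Its activated arrays were below the wildtype arrays in the higher run and overlapped them in the lower run, and over all arrays the difference was 0.01 with a 95% interval of -0.25 to 0.26. Ryk differed by -0.14 (95% interval -0.52 to 0.24) and Porcn, detected on 9 arrays, by 0.06 (95% interval -0.41 to 0.54).

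Between runs, 5 of the 38 genes passed the test in at least 1 genotype. These contrasts share their arrays with the comparisons of genotypes above. Among activated kidneys 4 of 38 genes passed (10.5%, against 4.91% of all genes), and among wildtype kidneys 2 of 38 passed (5.26%, against 5.16% of all genes); the share among wildtype kidneys is close to the background. In activated kidneys of the higher run Wnt4 fell to 8.70 ± 0.14, against 9.63 ± 0.51 in those of the lower run, a 1.9-fold difference (-0.93, SE 0.21, adjusted p = 0.0209 with limma). Lrp6 rose to 8.97 ± 0.07, against 8.46 ± 0.12 (0.51, SE 0.13, adjusted p = 0.0356). The second Lrp6 probe set, which is dimmer, gave 0.18 (SE 0.35). Sfrp1 rose to 7.82 ± 0.33, against 6.94 ± 0.42 (0.88, SE 0.23, adjusted p = 0.0423), on the probe set used. Its other probe sets gave 1.02, 0.58 and -0.06, the last with a mean signal of 7.43 against 7.46 for the one used, and with every probe set tested alone none of the 4 passed (lowest adjusted p = 0.0565). The run difference of Wnt7a passed with limma among activated kidneys (adjusted p = 0.0281) and among wildtype kidneys (adjusted p = 0.000164). That test uses lower-run values under the controls, so only a lower bound of the fold is given, which was not itself tested. Wnt7a was at least 1.1-fold higher in the higher run among activated kidneys and at least 1.39-fold higher among wildtype kidneys. These bounds set the higher-run mean against the highest bacterial control signal, since the lower-run arrays were under it; 2 of 3 activated and 3 of 3 wildtype arrays of the higher run were above it. In wildtype kidneys of the higher run Sfrp2 fell to 8.53 ± 0.23, against 9.68 ± 0.36 in those of the lower run, a 2.22-fold difference (-1.15, SE 0.19, adjusted p = 0.00211; SD and n = 3 for each mean). Without activated replicate 2, the calls of Wnt4 (adjusted p = 0.0658) and Lrp6 (adjusted p = 0.0639) among activated kidneys were lost and those of Sfrp1 (adjusted p = 0.00787) and Wnt7a (adjusted p = 0.0454) held. The calls among activated kidneys were few under other settings too: Wnt4 and Sfrp1 passed with arrays centred on medians, Wnt4 and Wnt7a with the mean of probe sets, Wnt7a alone without a variance trend, and 0 genes without activated replicate 1 or without activated replicate 5. Among wildtype kidneys Sfrp2 passed under every setting tried.

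**Figure D4:**
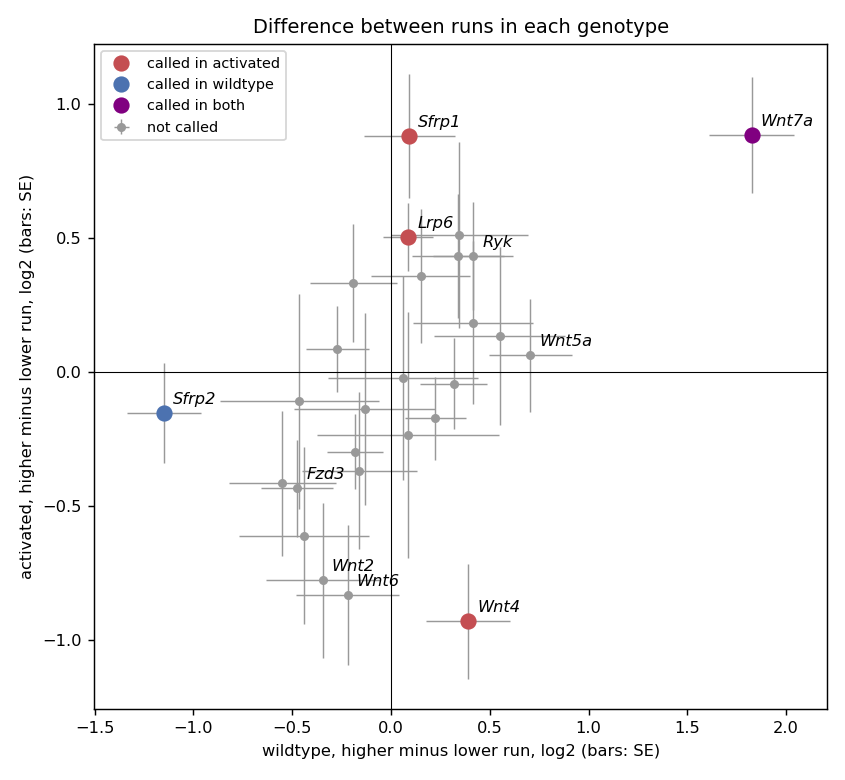
Higher minus lower run difference in log2 signal of the 27 genes detected on at least 1 array, with its SE, among activated kidneys (vertical axis) and wildtype kidneys (horizontal axis), with coloured points for the 5 genes that passed in either. Sfrp2 lies at -1.15 among wildtype kidneys, and Wnt4 at -0.93 and Sfrp1 at 0.88 among activated kidneys.

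Cell type markers also differed between runs. Macrophage markers summed to an intensity between 1141 and 1345 in activated kidneys of the higher run, against 350 to 697 in those of the lower run. Among wildtype kidneys they summed to between 936 and 1129 in the higher run, against 420 to 759 in the lower run. Proximal tubule markers summed to between 155 and 277 in activated kidneys of the higher run, against 85.5 to 171 in those of the lower run, with overlap. Among wildtype kidneys the same markers summed to between 293 and 389 in the higher run, against 138 to 168 in the lower run. Of the 6 proximal tubule markers, 0 were above the control signal on every array. Among activated kidneys 4 of the 6 were higher and 2 lower in the higher run. Erythroid markers summed to between 52.1 and 80.0 in activated kidneys of the higher run, against 146 to 411 in those of the lower run. Taken singly, 1 of these 4 markers was lower in the higher run (-2.82) and 3 were higher, with a median difference of 0.08. Of the 4, 0 were above the control signal on every array. Podocyte markers summed to between 304 and 407 in activated kidneys of the higher run, against 161 to 245 in those of the lower run. Between genotypes, 0 markers of podocytes, endothelium, proximal tubule, macrophages, erythroid cells and muscle passed with limma in either run, and 1 of 4 neural markers passed as lower in activated kidneys of the lower run. The part of these cells in the run differences of Wnt4, Wnt7a, Sfrp1, Sfrp2 and Lrp6 was not tested.

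The wider pathway holds genes that pass on Wnt signals, answer them or restrain them. Of 64 other genes of the pathway, 54 were measured. The list was chosen with earlier results of these data known. In the higher run 1 passed as higher in activated kidneys (median difference of the 54 genes -0.02), where 0.00807% of all genes passed. In the lower run 7 passed as higher and 1 as lower (median 0.01), where 0.597% of all genes passed. Over all arrays 1 passed as higher (median -0.03), where 0.0242% of all genes passed. With the run as a term 3 passed as higher, against 0.105% of all genes. The change between runs passed for 6, all negative, against 0.331% of all genes. Of the 7 that rose in the lower run, Axin2 and Nkd2 are feedback inhibitors inside the cell. Dkk1, Notum, Wif1 and Frzb are secreted inhibitors, and Apcdd1 is an inhibitor at the membrane. Apcdd1 read 11.41, 11.56 and 11.59 in activated kidneys of the higher run, against 10.35, 10.47 and 10.50 in wildtype kidneys (1.08, SE 0.09, adjusted p = 0.00689 with limma). Apcdd1 in the lower run read 12.69, 12.80 and 12.81 in activated kidneys, against 9.41, 10.03 and 10.16 in wildtype kidneys (2.90, SE 0.17, adjusted p = 0.00021). Its groups did not overlap in either run, and it is the gene of the pathway list that passed over all arrays (1.99, adjusted p = 0.0143).

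Frzb, an Sfrp relative that the naming rule does not cover, was 1 of the 6 genes of the pathway list whose change between runs passed. In the higher run Frzb read 6.55, 6.83 and 7.33 in activated kidneys, against 6.91, 6.99 and 7.16 in wildtype kidneys. Frzb in the lower run read 8.20, 8.26 and 8.61 in activated kidneys, against 6.41, 6.76 and 6.79 in wildtype kidneys, and rose by 1.71 (SE 0.22, adjusted p = 0.00769). The change between runs passed the test at -1.83 (SE 0.31, adjusted p = 0.0242). Sfrp1 and Sfrp2 read lower, not higher, in activated kidneys of that run, and the difference between Frzb and the Sfrp genes was not tested. Dkk1, which binds Lrp6, read 9.54, 9.79 and 9.84 in activated kidneys of the lower run, against 6.67, 6.93 and 7.17 in wildtype kidneys (2.80, adjusted p = 0.000354). Notum, an enzyme that removes the lipid Porcn adds, read 8.96, 9.55 and 10.06 in activated kidneys of the lower run, against 6.57, 6.64 and 6.70 in wildtype kidneys (2.89, adjusted p = 0.00132). Wif1, which binds Wnts, read 8.67, 8.95 and 9.04 in activated kidneys of the lower run, while all 3 wildtype arrays were under the controls (adjusted p = 0.000354). Nkd2 (adjusted p = 0.00236) and Axin2 (1.78, adjusted p = 0.00379) also rose in the lower run. In the higher run Dkk1 averaged 6.69 in activated and 6.27 in wildtype kidneys, Notum 6.84 and 6.71, and Axin2 7.38 and 6.93. Nkd2 averaged 6.87 and 5.75 there, and Wif1 6.40 and 5.00, the wildtype Wif1 arrays being under the controls. Of the pathway list only Apcdd1 passed in the higher run. Rspo1, a secreted protein that strengthens Wnt signals, fell to 6.52, 6.78 and 6.92 in activated kidneys of the lower run, against 7.86, 8.14 and 8.20 in wildtype kidneys (-1.33, SE 0.22, adjusted p = 0.0283). In the higher run Rspo1 read 7.40, 7.48 and 7.73 in activated kidneys, against 7.62, 7.88 and 8.03 in wildtype kidneys, with overlap. Among genes that did not pass, Nkd1 differed by 2.53 (adjusted p = 0.153) and Tcf7l1, a repressing Tcf factor, by -0.72 (adjusted p = 0.0537) in the lower run. Ctnnb1, which encodes beta-catenin, averaged 12.92 ± 0.06 in activated and 12.97 ± 0.10 in wildtype kidneys (SD, n = 6 each); its probe set does not show whether the protein was stabilised.

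**Figure D5:**
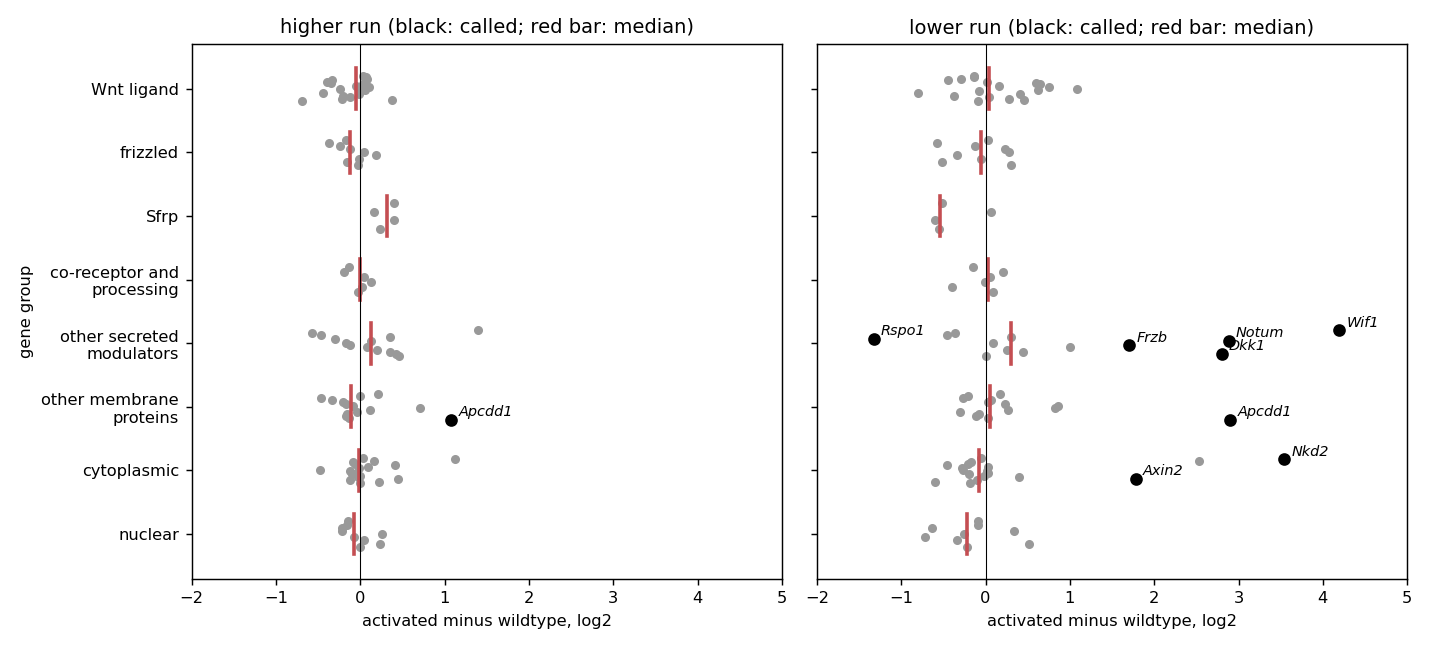
Activated minus wildtype difference in log2 signal of each gene (points) in the higher run (left) and the lower run (right), by class of Wnt pathway gene, with black points for genes that passed and a red bar at each median. The black points in the lower run are all among the other pathway genes, 7 higher and 1 lower, and none is a ligand, frizzled receptor or Sfrp gene.

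The sequences before the transcription start of Wnt4 and Sfrp2, which had the 2 smallest p-values for a change between runs, and of Wnt11 and Fzd7, which hold the motif searched, are printed 5' to 3' on the gene's strand. They are the 250 bases upstream of a RefSeq start in GRCm38.p6, all on the plus strand, at chr4:137277385-137277634 (Wnt4), chr3:83766071-83766320 (Sfrp2), chr7:98834862-98835111 (Wnt11, the first of its 2 windows) and chr1:59481897-59482146 (Fzd7). Capitals mark the core Tcf/Lef motif.
Wnt4: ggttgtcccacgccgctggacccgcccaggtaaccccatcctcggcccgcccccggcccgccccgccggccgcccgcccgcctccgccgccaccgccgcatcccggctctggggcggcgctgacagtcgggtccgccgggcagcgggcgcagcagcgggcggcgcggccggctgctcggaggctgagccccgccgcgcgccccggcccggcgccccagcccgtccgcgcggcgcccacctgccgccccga
Sfrp2: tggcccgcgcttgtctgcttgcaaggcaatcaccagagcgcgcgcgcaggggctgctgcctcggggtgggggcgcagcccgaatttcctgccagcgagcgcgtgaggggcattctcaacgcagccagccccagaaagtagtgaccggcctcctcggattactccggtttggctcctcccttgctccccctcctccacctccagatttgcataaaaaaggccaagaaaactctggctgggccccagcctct
Wnt11: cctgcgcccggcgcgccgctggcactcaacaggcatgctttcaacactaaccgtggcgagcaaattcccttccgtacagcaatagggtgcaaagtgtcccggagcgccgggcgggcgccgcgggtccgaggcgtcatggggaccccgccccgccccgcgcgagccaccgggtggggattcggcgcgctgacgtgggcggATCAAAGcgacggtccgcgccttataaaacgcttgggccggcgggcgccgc
Fzd7: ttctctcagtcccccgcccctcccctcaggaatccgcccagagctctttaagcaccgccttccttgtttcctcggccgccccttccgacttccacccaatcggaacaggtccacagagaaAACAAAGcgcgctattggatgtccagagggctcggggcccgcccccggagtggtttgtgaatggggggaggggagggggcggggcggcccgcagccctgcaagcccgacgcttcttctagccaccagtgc
The core motif was searched as CTTTG followed by AA, AT, TA or TT, on both strands, in windows of 250 bases before to 50 after each start. RefSeq windows were matched for 25 of the 38 genes, 28 windows in all. The motif was in 4 of the 28 windows (14.3%), in those of Fzd7, Wnt11, Wnt5b and Wnt3, against 16.9% of all 32851 windows. It was not in the windows of Wnt4 and Sfrp2. These counts describe letters in a short window only.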

How the data were processed

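Total RNA of 12 samples was hybridised to Affymetrix 3' arrays. The authors deposited a linear intensity per probe set and array, between 0.0693 and 23037.5. After trimming 2% from each end the array means lie between 250.099 and 250.126, so the deposited intensity was scaled per array; the software behind it was not given in these sources, and a dye entry in the labels was not used. Depth does not apply to arrays, and their number limits the precision.

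Values were taken as log2(intensity + 16), which understates changes of dim genes, and quantile normalised, because array quartiles differed by more than 0.1 (0.253, 0.293 and 0.183). Of 22690 probe sets, 20380 had 1 gene symbol; 691 with several, 1555 with none and 64 controls were left out of tests. A gene with several probe sets (4956 genes) took the one with the highest mean. All 38 members (55 probe sets) were found by gene ID in the RefSeq table of GRCm38.p6.

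Tests used limma 3.58.1 in R 4.3.3, fitted on all 12393 genes with Benjamini-Hochberg adjustment over all of them and a threshold of 0.05: over all arrays, with the run as a term, within each run, for the change between runs, and between runs within a genotype. The calculations were tested on simulated data. The members, the pathway list and 11 marker lists were chosen with earlier results of these data known. Lists are described by counts and medians, with no set test. Genes named with values were those that passed, up to 8 with the smallest unadjusted p in each of 4 comparisons, the brightest of each class and 12 known from kidney development, 21 in all. Others are summarised by class, or named after their values were seen. Alternatives tried were the deposited values, median centring, a pseudocount of 1, leaving out the dimmest 40% of genes, averaging probe sets, other variance settings, array weights, a pooled spread and leaving out each array. Python 3.11.15 and matplotlib 3.10.9 drew the plots.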

Additional observations from a re-analysis of the deposited data

Results flagged for a closer look

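Wnt4 was looked at again because all 3 activated arrays lay below the wildtype arrays in the higher run and above them in the lower run. The change between runs was -1.32 (SE 0.30), and its own test did not pass (adjusted p = 0.108 with limma). Wnt7a had the same arrangement, with a change between runs of -0.94 (SE 0.30, adjusted p = 0.412). Its lower-run signals were all under the bacterial controls, so the lower-run side has no measured direction.

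A single array stood apart within its group: Wnt3a on wildtype replicate 6 had a signal of 4.97, where the next highest wildtype array had 4.38. Both are under the highest bacterial control signal of 5.45. This was 1 of 76 groups of 6 arrays examined, and chance marks about 1 group in 20 by the criterion used.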

How the results depend on the processing

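Over all 12 arrays, with the run as a term and in the higher run, the count of members that passed stayed at 0 under every alternative run. In the lower run it was 1 (Wnt4) with the spread pooled over runs, and between 0 and 1 when each array was left out. For the change between runs it was 1 (Wnt4) with array weights, and between 0 and 1 when each array was left out. For the run difference among wildtype kidneys it was 1 with the dimmest 40% of genes removed, which takes Wnt7a out of the test, 4 with array weights, and between 2 and 3 when each array was left out. Among activated kidneys it was 2 with arrays centred on their medians, 2 with the mean of all probe sets, 1 without a variance trend, and between 0 and 4 when each array was left out, with 0 without activated replicate 1 or without activated replicate 5. Apart from the removed dim genes and the fewer arrays, the cause was not tested.

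Of 811 values of named genes under alternatives, 751 kept direction and side of the threshold, 33 lost a call, 4 gained one and 23 changed sign; no value that changed sign had passed the test. Over all arrays Ror2 was -0.0046 as deposited, -0.0055 with arrays centred on medians and -0.018 with array weights, Sfrp2 was 0.020 with array weights, and Fzd7 was 0.050 with the mean of its 2 probe sets, of which 1 is under the controls, which also gave 0.17 in the higher run. Leaving out each array gave between -0.038 and 0.048 for Ror2, -0.24 and 0.075 for Sfrp2, -0.062 and 0.33 for Wnt7a, -0.16 and 0.039 for Fzd4, and -0.20 and 0.10 for Wnt11. The deposited scaling moved the median difference of all genes to -0.0195, and median centring to -0.0204. Genes under the control signal have no measured direction. No paired analysis was possible because the titles share no number between genotypes.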
